A study of Mus musculus with 27 samples.

Results

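The step from 2 h to 4 h of interleukin-4 (IL-4) stimulation was examined in bone marrow-derived macrophages (BMDMs), primary macrophages grown from mouse bone marrow, to ask which changes brought about by IL-4 were still growing, which held and which were fading at 4 h. Genes were included when at least 10 normalised read counts were found in at least 3 of the 6 samples of these 2 times, which left 11805 of the 45070 genes in the deposited table, or 99.1% of the normalised read counts of the 6 samples. Of the included genes, 9948 were protein-coding, 1673 were non-coding RNA genes and 184 were of other types. Of the genes included, 23 reached the minimum through 2 h alone, with 6 of them called lower at 4 h, and 62 through 4 h alone, with 25 called higher, and these calls are partly set by the minimum itself. A gene that IL-4 changed only at 0.5 h or 1 h and that was low at both later times is therefore not among them.

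The cells were wild type, received DMSO, the vehicle of the kinase inhibitors tested elsewhere in the study, for 1 h, and were then left untreated or given IL-4 or lipopolysaccharide (LPS), a bacterial cell wall component, at 10 ng/ml. Samples were taken after 0.5 h, 1 h, 2 h and 4 h of stimulation, with 3 replicates in each of 9 groups and 27 samples in all. The study's methods give male mice of the C57/BL6 strain as the source of the marrow, but nothing states whether replicates were separate cultures or animals, so p-values measure only the spread between these samples, which may be technical. The RNA was chromatin-associated, that is, RNA still attached to DNA in the nucleus, which is rich in unspliced transcripts and follows transcription more closely than total RNA does.

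IL-4 binds a receptor that contains the chain Il4ra, and the receptor's JAK kinases phosphorylate the transcription factor STAT6, which then enters the nucleus and activates genes of alternative macrophage activation such as Arg1, Retnla and Mrc1. A parallel branch runs through the adaptor Irs2 and PI3 kinase. Among the induced genes are Socs1, Socs2 and Cish, whose products restrain cytokine receptor signalling.

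The 6 samples held 2469768 to 2601295 normalised read counts each. The 12 macrophage markers summed to 11400 to 12101 normalised read counts at 2 h and to 12117 to 12438 at 4 h, and 11 of them were tested, of which 1 was called lower at 4 h. Summed markers of T cells (3 to 4 at 2 h, 4 to 8 at 4 h), mast cells and basophils (1 to 1 and 1 to 2), neutrophils (9 to 41 and 16 to 37), B cells (11 to 31 and 39 to 44), dendritic cells (51 to 91 and 73 to 123), fibroblasts and stromal cells (44 to 229 and 44 to 187) and erythroid cells and megakaryocytes (207 to 339 and 229 to 395) were low. No marker of neutrophils, T cells or mast cells reached the minimum, and of the others 1 B cell, 3 dendritic cell, 3 fibroblast and 2 erythroid or megakaryocyte markers were tested, with no call. Of the defining markers, Cd3e, Cd3g, Ly6g, Hba-a1 and Hbb-bs were listed at 0 in all 6 samples. A listed 0 need not mean that a gene was silent, since Atf4, which most cells express, was listed at 0 in all 27 samples and reads that mapped to several places had been removed. Replicate 1 stood apart at both times: the SD of the log2 ratio between samples of a group was 0.43 to 0.45 for pairs that included replicate 1 and 0.18 to 0.19 between replicates 2 and 3. In bulk samples of this kind, fewer cells of a type and less RNA per cell cannot be told apart.

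Between 2 h and 4 h, 359 genes rose (3.04% of those tested) and 460 fell (3.90%), as tested on log2(value + 1) with limma across the 3 untreated and 12 IL-4 samples with Benjamini-Hochberg adjustment. The median size of a called step was 0.64 on the log2 scale, and 90 rises and 72 falls were larger than 1, that is, larger than 2-fold. Over all tested genes the median step was 0.00. Replicates carry the same numbers at each time, and replicate 1 deviated in the same way at both. The step was therefore also fitted with the replicate number as a block, though numbers 2 and 3 were not shown to pair the samples. This gave 886 rises (7.51%) and 1006 falls (8.52%), which included all 359 and all 460. The unblocked counts fell to 158 to 185 rises and 262 to 295 falls when any of replicates 2 and 3 at 2 h or at 4 h was left out. They fell to 9 to 13 and 24 to 37 when replicate 2 or 3 was left out of every group, against 337 to 429 and 476 to 502 with the block, and no gene was called in opposite directions by these fits. When all samples were scaled to equal totals the split was 449 rises to 380 falls.

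To sort the changes, a gene was called raised or lowered by IL-4 when the mean of 2 h and 4 h differed from untreated, a comparison that is independent of the step. A change was said to grow or to fade when the step was called in the same or in the opposite direction, and to hold when the step was not called and its 95% interval lay within 2-fold. Of 2241 raised genes (19.0%), 70 grew, 1689 held, 207 faded and 275 could not be assigned. Of 1786 lowered genes (15.1%), 138 grew, 1300 held, 140 faded and 208 could not be assigned. The 2-fold limit was wide against the changes themselves. Raised genes that held had median log2 changes of 0.64 at 2 h and 0.62 at 4 h, and lowered ones -0.67 and -0.66. Holding alone therefore does not show that a change of this size persisted. At 4 h 1291 of the raised and 1024 of the lowered genes that held were called against untreated. With the replicate block 186 raised genes grew and 414 faded, and 339 lowered genes grew and 368 faded, so in either fit fading exceeded growth among the raised genes. Another 149 genes stepped up and 115 stepped down without a called change against untreated, and 7514 did neither.

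**Figure D1:**
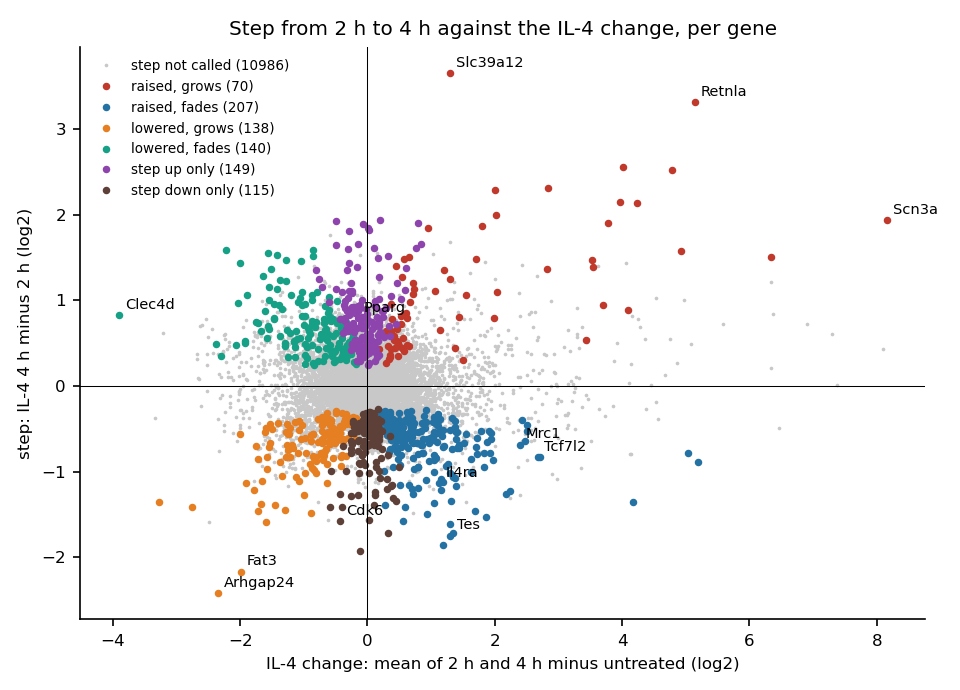
Each point is 1 of the 11805 tested genes, with the log2 change of the mean of 2 h and 4 h against untreated on the horizontal axis and the log2 step from 2 h to 4 h on the vertical axis. Coloured points are the 819 genes with a called step, by class. Grey points are the other genes. Retnla and Scn3a lie at the upper right, Arhgap24 and Fat3 at the lower left.

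The classes differed in their course before 2 h, in samples that had no part in defining the step. Most genes that faded were raised early: their median log2 change from untreated was 0.83 at 0.5 h and 1.08 at 1 h, and then 1.13 at 2 h and 0.46 at 4 h. Of these 207 genes, 192 were already raised at 0.5 h or 1 h, and 122 still differed from untreated at 4 h. Of the 1689 raised genes that held, 823 were raised early, and of all 2241 raised genes 1193 were. The raised and the early calls share the untreated samples, so part of this overlap is built in. Genes that grew had medians of 0.21, 0.20, 0.29 and 1.30 at the 4 times. Of these 70 genes, 25 were already raised at 0.5 h or 1 h, among them Retnla, Scn3a, Mylk and Hhip, and 31 were called against untreated at 2 h. For Retnla, Mylk and Hhip the early calls rest on means under 10 normalised read counts. Retnla and Hhip were at 2.67 and 3 at 1 h, and Mylk was at 5 at 0.5 h and 2 at 1 h. Scn3a was at 6.33 at 0.5 h and 31.7 at 1 h. The lowered genes that grew had medians of 0.05, -0.11, -0.39 and -1.10, while those that faded had medians of -0.28, -0.74, -1.16 and -0.50, and 77 of the 140 still differed from untreated at 4 h. The values at 2 h and 4 h follow from how the classes were chosen and are a description.

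**Figure D2:**
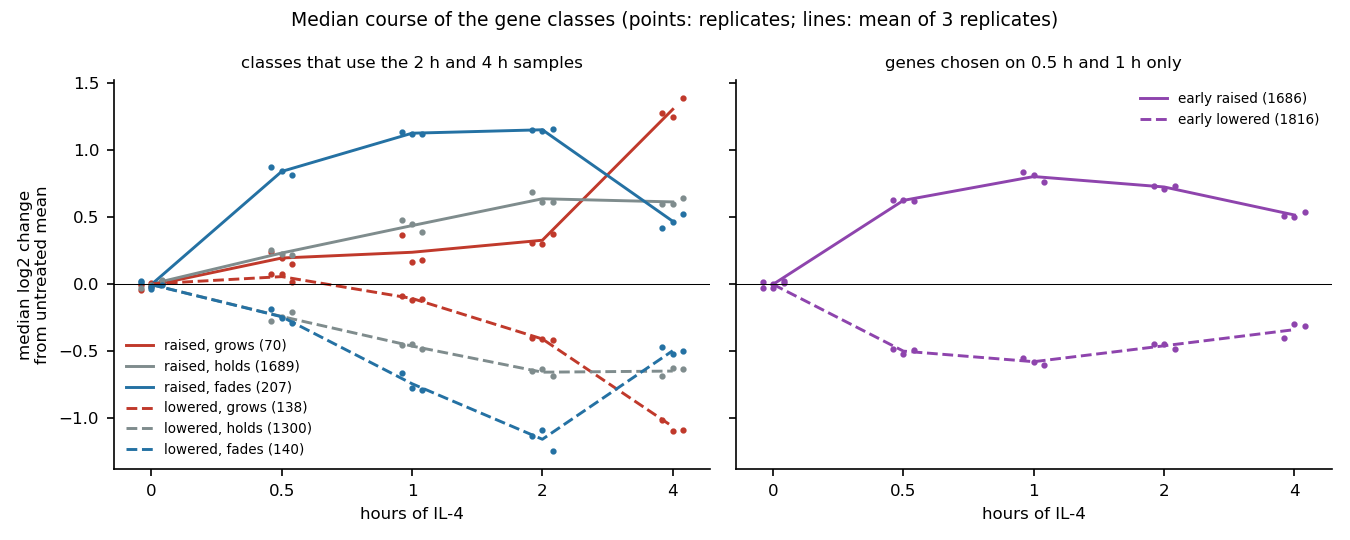
Median log2 change from the untreated mean against hours of IL-4, with points for the 3 replicates and lines for their mean, for the 6 classes (left) and for genes chosen on 0.5 h and 1 h alone (right). Raised genes are drawn as solid lines and lowered genes as dashed lines. In the right panel early raised genes sit lower at 4 h than at 2 h in all 3 replicates, and early lowered genes sit higher.

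To follow early changes without using the later samples, genes were also chosen on the comparisons of 0.5 h and 1 h with untreated. Of 1686 early raised genes (14.3% of those tested), 38 rose and 269 fell between 2 h and 4 h, or 2.25% and 16%, against 3.04% and 3.90% of all genes. Their median step was -0.17, and it was -0.19, -0.18 and -0.15 within replicate pairs 1, 2 and 3. Of 1816 early lowered genes (15.4%), 167 rose and 40 fell, or 9.20% and 2.20%, with a median step of 0.11 and pair values of 0.05, 0.11 and 0.15. In all 3 pairs the early changes thus moved back towards untreated. The return was partial, since the median change of the early raised genes was still 0.52 at 4 h after 0.73 at 2 h, and that of the early lowered genes -0.33 after -0.47. With the replicate block 91 and 472 of the same early raised genes rose and fell, and 344 and 95 of the early lowered genes. Among the 8303 genes with no early change, 154 rose and 151 fell.

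The raised genes that grew included Retnla, which encodes the secreted protein FIZZ1, a widely used marker of IL-4-activated macrophages. Retnla (chr16:48842609-48844461, GRCm38) was at 0 normalised read counts in all 3 untreated samples, at 9, 9 and 13 in replicates 1, 2 and 3 at 2 h, and at 74, 140 and 129 at 4 h. All 4 h samples lay above all 2 h samples, and the gene rose by 3.31 ± 0.46 (SE) on the log2 scale between the times (limma adjusted p = 0.00063, n = 3 per time). Its mean at 4 h was at least 38.1-fold higher than in untreated cells, taking 3 normalised read counts in each untreated sample as the floor. Retnla was at 0 in every LPS sample of 2 h and 4 h.

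Scn3a, a voltage-gated sodium channel subunit (chr2:65457118-65567492), climbed at every time. It was at 1, 0 and 0 in untreated cells, at 133, 198 and 230 at 2 h and at 551, 731 and 860 at 4 h, a step of 1.94 ± 0.32 (limma adjusted p = 0.00202). Slc39a12, a zinc transporter gene, had the largest rise of the named genes, and it came in the last interval. It was at 19, 19 and 18 in untreated cells, at 19, 8 and 13 at 2 h and at 278, 134 and 132 at 4 h, a step of 3.65 ± 0.34 (limma adjusted p = 3.34e-05). Kcnd3, a potassium channel gene, went from 13.7 ± 3.21 (SD) to 82.0 ± 6.25, Mylk, myosin light chain kinase, from 12.3 ± 1.53 to 77.7 ± 12.6, and Ksr2, a scaffold of the RAF and MEK kinases, from 18.3 ± 9.29 to 73.3 ± 25. The replicates of these 3 genes did not overlap between the times, but this was a condition for naming genes by the size of their step. Among all tested genes it was so upwards for 11.6% and downwards for 11.5%. Hhip, which binds Hedgehog ligands, was at 0 in untreated cells and went from 17.3 ± 6.51 to 52.0 ± 9.85. Its call ended when any of 5 of the 6 samples was left out, all but replicate 3 of 2 h, with limma adjusted p up to 0.126.

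**Figure D3:**
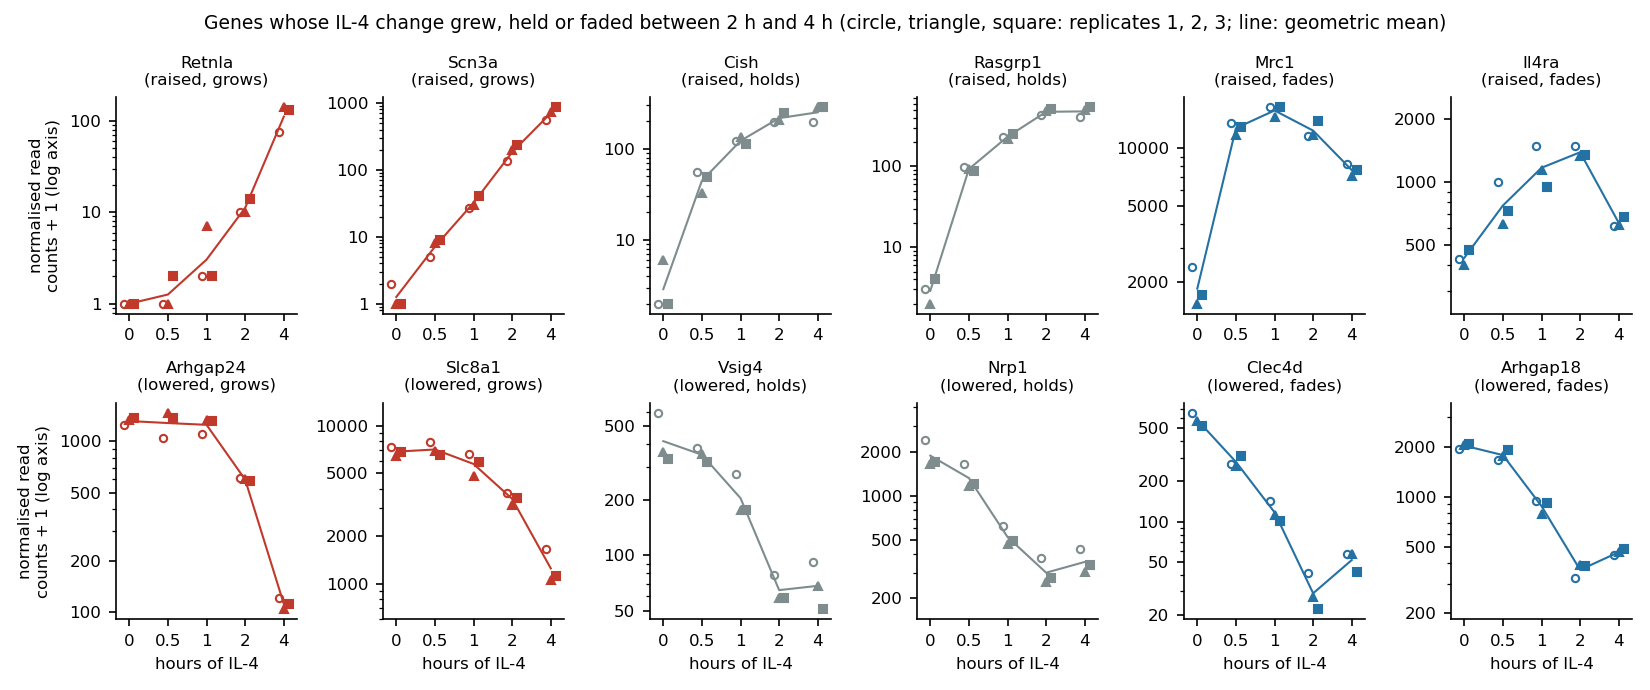
Normalised read counts plus 1 on a log axis against hours of IL-4 (0 is untreated) for 12 genes, with a circle, triangle and square for replicates 1, 2 and 3 and a line for the geometric mean. Red genes were still moving away from untreated at 4 h, grey genes held and blue genes moved back. Arhgap24 fell from 581 to 605 at 2 h to 103 to 120 at 4 h.

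STAT6 dimers bind palindromic elements of the form TTCNNNNGAA, and this spelling was looked up in the promoters of the RefSeq table (GRCm38.p6, 250 bases before to 50 after each start, matched by Entrez gene identifier for 9311 of the 11805 genes). The spelling reads the same on both strands. It was present in 9 of the 73 promoters of raised genes that grew (12.3%), in 6.94% of those of raised genes that faded, in 5.61% of those that held, in 8.96% of those of raised genes that could not be assigned, in 8.06% of those of genes that stepped down without a called change, in 5.70% of the promoters of all tested genes and in 6.95% of all promoters in the table. The shorter spelling TTCNNNGAA, which other STAT proteins prefer, was in 6.85% of the promoters of raised genes that grew and in 7.01% of those of all tested genes. These shares are counts of letters in a window and carry no test. The stretches around the match are shown for 4 of the genes that hold one with its flanks wholly inside the 250 bases before the start. The match is in capitals, written 5′ to 3′ on the strand of the gene.
Retnla, chr16:48842454-48842483, plus strand, raised and growing: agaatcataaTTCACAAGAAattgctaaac
Il4i1b, chr7:44816169-44816198, plus strand, raised and growing: agcccccaaaTTCTCCGGAAgcacgccctc
Pdcd1lg2, chr19:29410827-29410856, plus strand, raised and not assigned: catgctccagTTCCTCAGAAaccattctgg
Vav3, chr3:109340474-109340503, plus strand, lowered and growing: tcagccacacTTCCTAGGAAgccgcgccga

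Sinhcaf and Gm36442, both of fading classes, hold a match that does not meet this limit and is not shown. Catsperg1, Gm30605, Mtm1, Ptprs, Scfd2 and Zfp809, also raised and growing, hold a match within this limit that is not shown either. No match was found in the promoters of the growing genes Slc39a12, Kcnd3, Mylk, Ksr2 and Hhip, and Scn3a had no promoter to search. The matches begin 145, 191, 82 and 199 bases before the start for Retnla, Il4i1b, Pdcd1lg2 and Vav3. Il4i1b went from 171 ± 13.7 (SD) normalised read counts at 2 h to 271 ± 47.7 at 4 h, a step of 0.65 ± 0.16 (limma adjusted p = 0.0247), but it overlaps Il4i1 and Nup62 on the same strand, so its reads may be shared. Il4i1b was chosen after its values were seen.

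Markers of IL-4 activation took different courses. Of 47 genes in a list of IL-4 and STAT6 targets, 37 were tested, 5 rose (Retnla, Scn3a, Pparg, Il31ra and Matk), 4 fell (Mrc1, Socs2, Tgm2 and Ndrg1) and 28 were not called, with a median step of 0.47 against 0.00 over all tested genes. Rises were 13.5% and falls 10.8% of those tested, against 3.04% and 3.90% of all genes. In the replicate block 15 rose and 7 fell, where 7.51% and 8.52% of all genes did. The calls of Matk and Tgm2 ended without any of the 6 samples, that of Il31ra without any but replicate 3 of 2 h and that of Ndrg1 without replicate 2 of 2 h, with limma adjusted p up to 0.112, 0.130, 0.149 and 0.0554. The list's median change from untreated was 2.06, 2.43, 2.73 and 2.76 after 0.5 h, 1 h, 2 h and 4 h, and 29 of the 37 were raised over 2 h and 4 h. Of those 29, 4 grew, 2 faded, 5 held and 18 could not be assigned, so for most of them these data do not settle the step. Chil3, Ccl17, Ccl22 and Ch25h, also markers of IL-4 activation in macrophages, were among the 10 genes that did not reach the minimum, and Chil3 was listed at 0 in all 27 samples, LPS included.

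Mrc1, the mannose receptor CD206 (chr2:14229414-14332023), was the most abundant fading gene among those named. It was at 2386, 1541 and 1708 in untreated cells, at 16253, 14498 and 16212 at 1 h, at 11547, 11634 and 13780 at 2 h and at 8200, 7113 and 7664 at 4 h. All 4 h samples lay below all 2 h samples and above all untreated samples, with a step of -0.68 ± 0.14 (limma adjusted p = 0.00802). Arg1, the arginase of alternative activation, was low, at 24, 45 and 54 at 2 h and at 37, 61 and 85 at 4 h, and its step of 0.56 had an interval from -0.34 to 1.46. The samples of the 2 times overlapped, so neither a rise nor a hold of Arg1 was shown.

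Irf4 and Flt1 belong to the same list and missed the threshold without the block. Irf4, a transcription factor of alternative activation, was at 230, 205 and 260 at 2 h and at 361, 426 and 411 at 4 h, a step of 0.79 ± 0.26 (limma adjusted p = 0.0937, or 0.00926 with the replicate block, and 0.00102 to 0.560 over the alternatives). Flt1, a receptor for vascular endothelial growth factor, was at 675, 689 and 602 and then at 1112, 1171 and 1225, a step of 0.84 ± 0.24 (limma adjusted p = 0.0548, or 0.000449 with the block, and 7.65e-05 to 0.503 over the alternatives). For each of these genes all 4 h samples lay above all 2 h samples. Called genes of the list also passed 0.05 in some alternatives, with limma adjusted p up to 0.0627 for Retnla, 0.122 for Scn3a, 0.181 for Socs2 and 0.297 for Mrc1. Pdcd1lg2, the checkpoint ligand PD-L2, went from 324, 479 and 497 to 491, 570 and 686, with overlap, and its step of 0.44 had an interval from -0.24 to 1.11. Egr2 (step 0.60), Klf4 (0.84) and Ccl24 (-0.02) could not be assigned either, while Myc held at 49.7 ± 16.2 and 40.3 ± 7.77.

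Pparg, a lipid-sensing nuclear receptor that supports alternative activation, turned around. It was at 986, 742 and 689 in untreated cells, at 1977, 1645 and 1563 after 1 h, at 660, 487 and 499 after 2 h and at 1305, 786 and 807 after 4 h. The samples of 2 h and 4 h did not overlap, and the step was 0.79 ± 0.20 (limma adjusted p = 0.0305), so Pparg left a low at 2 h that lay below untreated in its mean. The call ended without replicate 2 or 3 of 2 h or replicate 1 of 4 h, with limma adjusted p up to 0.114. It was also lost in a fit of the 6 samples alone and when samples were rescaled by the median ratio of their genes. Over all alternatives its limma adjusted p reached 0.29.

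Of 29 tested genes of the IL-4 receptor and JAK-STAT pathway, 4 fell (Il4ra, Pik3r1, Pik3cd and Inpp5d) and 1 rose (Irs2), with a median step of 0.00. These were 13.8% and 3.45%, against 3.90% and 3.04% of all genes. Il4ra rose from 427, 397 and 471 in untreated cells to 1490, 1333 and 1350 at 2 h and fell to 612, 618 and 676 at 4 h, a step of -1.13 ± 0.17 (limma adjusted p = 0.00102). All 4 h samples lay below all 2 h samples and above all untreated samples. Pik3r1 and Pik3cd, subunits of PI3 kinase, fell from 1413 ± 72.0 to 1046 ± 38 and from 750 ± 47.4 to 553 ± 53.5. Inpp5d, the phosphatase SHIP1, was lowered by IL-4 and fell on from 1909 ± 69.5 to 1457 ± 87.4, with limma adjusted p = 0.0535 without replicate 2 of 2 h. Irs2 rose from 58.3 ± 9.71 to 96.0 ± 4.00, after 214, 170 and 164 at 0.5 h, with limma adjusted p up to 0.0558 without replicate 1 or 2 of 2 h or replicate 2 of 4 h. Stat6 was at 191 ± 18.9 and 201 ± 20.6, and the interval of its step ran from -0.18 to 0.33. The call of Pik3cd ended without replicate 1 or 3 of 2 h or replicate 2 or 3 of 4 h, with limma adjusted p up to 0.0776.

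The feedback genes split. Socs2 was at 1 in all untreated samples, at 62, 47 and 62 at 2 h and at 29, 23 and 15 at 4 h, a step of -1.35 ± 0.22 (limma adjusted p = 0.00208). Cish held: it was at 1, 5 and 1 in untreated cells, at 195, 207 and 248 at 2 h and at 193, 284 and 284 at 4 h, with a step of 0.21 and an interval from -0.52 to 0.95. Socs1 was at 202, 130 and 257 and then at 91, 168 and 157, and its interval from -1.26 to 0.28 did not assign it. Of the 7 tested SOCS and CIS genes, Socs2 alone was called (14.3%, where 3.90% of all genes fell).

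Among the genes that held, Rasgrp1, an activator of Ras, had one of the smallest steps of those named. It was at 2, 1 and 3 in untreated cells, at 429, 489 and 507 at 2 h and at 405, 504 and 540 at 4 h, and its step of 0.02 had an interval from -0.40 to 0.43. Slc30a4, a zinc transporter gene, held at 208 ± 46.0 and 226 ± 32.6. Cacnb2, a calcium channel subunit gene, met the limits for holding with 604 ± 19.1 and 882 ± 50.8, but its step of 0.54 was called with the replicate block (limma adjusted p = 0.00849, against 0.0541 without it and 0.00703 to 0.374 over the alternatives).

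Of the raised genes that faded, Tcf7l2, a transcription factor of the Wnt pathway, was at 9051, 8122 and 8305 at 2 h and at 4989, 4610 and 4760 at 4 h, after 1095, 1001 and 905 in untreated cells, a step of -0.83 ± 0.10 (limma adjusted p = 0.000181). Tes, the focal adhesion protein testin, peaked at 0.5 h with 950, 1303 and 1350 and went from 346, 451 and 523 at 2 h to 118, 138 and 131 at 4 h, near its 71, 108 and 113 in untreated cells. Tes overlaps the non-coding Gm4876 on the other strand, which ran the same course, and the 2 cannot be separated if strand was not counted. Arap2, a GTPase-activating protein, fell from 581 ± 37.2 to 213 ± 46.7, Sinhcaf, a subunit of the SIN3 histone deacetylase complex, from 74.7 ± 6.66 to 24.3 ± 1.15, and Hs3st3b1, a heparan sulfate sulfotransferase, from 52.3 ± 5.86 to 17.7 ± 4.04. Rps6kc1 and Fyn faded by less, with steps of -0.52 ± 0.13 and -0.46 ± 0.12. The call of Fyn ended without replicate 1 or 3 of 2 h or replicate 2 or 3 of 4 h, and that of Rps6kc1 without any of the 6 samples but replicate 3 of 4 h, with limma adjusted p up to 0.128 and 0.0859.

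Of the non-coding genes with the largest steps, Gm38585 (2.15), Gm36442 (1.55), Gm41283 (-1.85) and Gm4876 (-1.72) each overlap a protein-coding gene (Notch3, Fnip2, Ctnnd2 and Tes), so their steps on the log2 scale are uncertain.

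Lowered genes that grew included Arhgap24 (chr5:102481391-102897937), a GTPase-activating protein for Rac. It was at 1239, 1329 and 1374 in untreated cells, at 1103, 1333 and 1320 at 1 h, at 605, 601 and 581 at 2 h and at 120, 103 and 110 at 4 h. The step of -2.42 ± 0.12 (limma adjusted p = 7.52e-08) was the largest fall among the named genes. Slc8a1, a sodium-calcium exchanger (chr17:81373105-81738387), was at 7321, 6447 and 6864 in untreated cells, at 3734, 3157 and 3471 at 2 h and at 1660, 1054 and 1112 at 4 h, a step of -1.46 ± 0.16 (limma adjusted p = 9.4e-05). Vav3, a guanine nucleotide exchange factor, went from 1899 ± 269 to 748 ± 278, Fat3, an atypical cadherin, from 229 ± 46.7 to 54.0 ± 27.5, and Bank1, an adaptor of antigen receptor signalling, from 41.7 ± 13.2 to 15.3 ± 3.21. The replicates of each of these 3 genes lay lower at 4 h without overlap, as did those of 11.5% of all tested genes. For Vav3 and Fat3 this was a condition of being named. Cdk6, a cell cycle kinase, and Ube2e2, a ubiquitin-conjugating enzyme, stepped down without a called change over both times: Cdk6 went from 901, 695 and 859 to 410, 200 and 247, against 834, 548 and 568 in untreated cells.

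Of the lowered genes that faded, Clec4d, Arhgap18 and Klhl6 stayed below all untreated samples at 4 h. Clec4d, a C-type lectin that senses mycobacterial lipids, was at 654, 567 and 521 in untreated cells, at 40, 26 and 21 at 2 h and at 56, 56 and 41 at 4 h. Its step of 0.83 ± 0.20 (limma adjusted p = 0.0264) left it 3.49 below untreated on the log2 scale, and the call ended without replicate 2 or 3 of 2 h or replicate 1 or 2 of 4 h, with limma adjusted p up to 0.115. Arhgap18, a GTPase-activating protein, and Klhl6, a ubiquitin ligase adaptor, rose by 0.35 ± 0.09 and 0.49 ± 0.14, and both calls ended without replicate 1 or 3 of 2 h or replicate 2 or 3 of 4 h, with limma adjusted p up to 0.127 and 0.161. Nrp1, Vsig4, Hsf3 and Zfyve28 held among the lowered genes. Vsig4, a complement receptor of resident macrophages, was at 77, 58 and 58 at 2 h and at 91, 67 and 50 at 4 h after 591, 362 and 333 in untreated cells. Nrp1, a semaphorin receptor, was called higher by 0.24 with the block alone (limma adjusted p = 0.0127, against 0.561 without it and 0.0127 to 0.865 over the alternatives).

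Other genes rose to 4 h without a called change at 2 h against untreated. Clec2g and Clec4a4, genes of C-type lectins, went from 16 ± 2.65 to 62.3 ± 8.33 and from 18.7 ± 2.52 to 69.7 ± 10.8. Cbfa2t3, a transcriptional corepressor, went from 32.0 ± 15.6 to 96.3 ± 8.74, and Fads3, of the fatty acid desaturase family, from 49.7 ± 15.0 to 152 ± 36.1. In untreated cells the means of Clec2g, Clec4a4, Cbfa2t3 and Fads3 were 18.7, 36.7, 61.3 and 79.3, so part of the last 3 rises made up a lower mean at 2 h. At 4 h Clec2g and Fads3 were called against untreated (limma adjusted p = 0.00575 and 0.0398). Clec4a4 and Cbfa2t3 were not (limma adjusted p = 0.0770 and 0.235). The replicates of these 4 genes lay higher at 4 h without overlap, as did those of 11.6% of all tested genes, but this was a condition of being picked as large rises. The calls of Clec2g and Cbfa2t3 ended without any of replicates 2 and 3 of either time, with limma adjusted p up to 0.0559 and 0.0944.

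Gene lists drawn from general knowledge were described by their counts and medians. Of all tested genes 3.04% rose and 3.90% fell, or 7.51% and 8.52% with the block. Of 42 interferon-responsive genes, which type I interferon induces, 29 were tested and 13 were under the minimum. Of those tested, 4 fell (Ifit2, Oasl2, Gbp7 and Dhx58), or 13.8% against 3.90% of all genes. None rose and 6.90% had a positive step, against 50.8% of all genes. The list's median step was -0.38, and -0.57, -0.35 and -0.30 in replicate pairs 1, 2 and 3, and 16 fell and none rose with the block. Ifit2 was at 19, 21 and 26 in untreated cells, at 19, 13 and 12 at 2 h and at 5, 4 and 5 at 4 h, a step of -1.45 ± 0.24 (limma adjusted p = 0.00215). Ifit2 reached the minimum through 2 h alone, so this fall, counted among the 4, is partly set by the minimum itself. After LPS, Ifit2 was at 1411 to 2702 at 2 h and 4 h. The call of Oasl2 ended without replicate 2 of 4 h (limma adjusted p = 0.0513), and that of Dhx58 when any of 5 of the 6 samples was left out, all but replicate 3 of 4 h (up to 0.142).

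Of 28 tested genes of mitochondrial respiration, 3 rose (10.7%, against 3.04% of all genes) and none fell (against 3.90%). The 3 were Sdha, Sdhb and Ndufv2, subunits of complexes II and I of the respiratory chain. A positive step was found in 25 (89.3%, against 50.8% of all genes), and 14 of the 17 raised members held. The median step was 0.34, with 0.23, 0.28 and 0.40 in the pairs. Sdha was at 217, 193 and 198 at 2 h and at 282, 259 and 277 at 4 h, a step of 0.43 ± 0.08 (limma adjusted p = 0.00379). The calls of Sdhb and Ndufv2 ended without replicate 3 of 4 h, and that of Sdhb also without replicate 1 of either time or replicate 3 of 2 h, with limma adjusted p up to 0.137 and 0.0565. The list's median change from untreated went from 0.31 at 2 h to 0.67 at 4 h.

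Of 26 lysosomal and phagocytic genes, 4 rose (15.4%, against 3.04% of all genes) and 1 fell (3.85%, against 3.90%), 84.6% had a positive step, against 50.8%, and the median was 0.27. Ctsh, a cathepsin, rose from 208 ± 14.0 to 347 ± 34.6 and Npc1, which exports cholesterol from lysosomes, from 428 ± 30.7 to 576 ± 21.0, while the transcription factor Tfec faded from 2359 ± 616 to 1402 ± 24.6. With the block 10 of the list rose and 2 fell, where 7.51% and 8.52% of all genes did. The rises of Tfeb and Ctsz were lost without replicate 2 or 3 of 2 h, and that of Ctsz also without replicate 1 or 3 of 4 h, with limma adjusted p up to 0.0641 and 0.0964. C-type lectins and scavenger receptors gave 3 rises (Clec4a3, Clec4b1 and Clec4d) and 1 fall (Mrc1) in 18, with a median of 0.43, and 9 rises and 2 falls with the block. Toll-like receptors with Cd14 gave 2 rises (Tlr7 and Tlr8) and 1 fall (Ly86) in 12, with a median of 0.30, and 5 rises and 1 fall with the block. Without the block rises were 16.7% of each list and falls 5.56% and 8.33%, against 3.04% and 3.90% of all genes. The calls of Clec4b1 (without any sample but replicate 1 of 2 h) and Tlr8 (without replicate 1 of 2 h or replicate 2 or 3 of 4 h) ended with limma adjusted p up to 0.157 and 0.110. Tlr7, a sensor of single-stranded RNA, was at 943, 832 and 937 in untreated cells, at 409, 424 and 422 at 2 h and at 651, 492 and 614 at 4 h, and its call ended without replicate 3 of 4 h (limma adjusted p = 0.0526).

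Of 32 tested genes of MYC and ribosome biogenesis, 1 rose (Mnt, a repressor that opposes MYC) and none fell, 28.1% had a positive step, and the median step was -0.28. Of the 23 members that IL-4 raised, 15 held and 8 could not be assigned. With the block 2 of the 32 rose and 8 fell, where 7.51% and 8.52% of all genes did, or 3.04% and 3.90% without it. Cell cycle genes had a median of -0.20, with 1 fall (Cdk6) in 29. MHC class II genes had 5 positive steps of 5 tested and a median of 0.66, but none was called, and 6 of the 11 in the list were under the minimum. In cholesterol synthesis the median was 0.25 with no call in 20, and 3 rises with the block. Immediate early genes gave 2 rises (Klf2 and Klf6) and no fall in 12, with a median of 0.47, and 14 others were under the minimum. Primary NF-kB targets gave 1 rise (Ccl3) and 1 fall (Nfkb1) in 15, glycolysis 1 fall (Hk3) in 19, the unfolded protein response 1 fall (Pdia4) in 17, lipid genes of LXR and PPAR 1 rise (Pparg) in 16, chemokines 1 rise (Ccl3) in 5 and chemokine receptors 1 rise (C3ar1) in 8. The rises of Ccl3 (without any of the 6 samples), Klf6 (without any but replicate 1 of 4 h) and C3ar1 (without replicate 2 or 3 of 2 h or replicate 2 of 4 h) ended with limma adjusted p up to 0.168, 0.133 and 0.0889. The medians of these last 6 lists lay between -0.02 and 0.21, and the sign of the chemokine median changed when samples were scaled to equal totals.

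**Figure D4:**
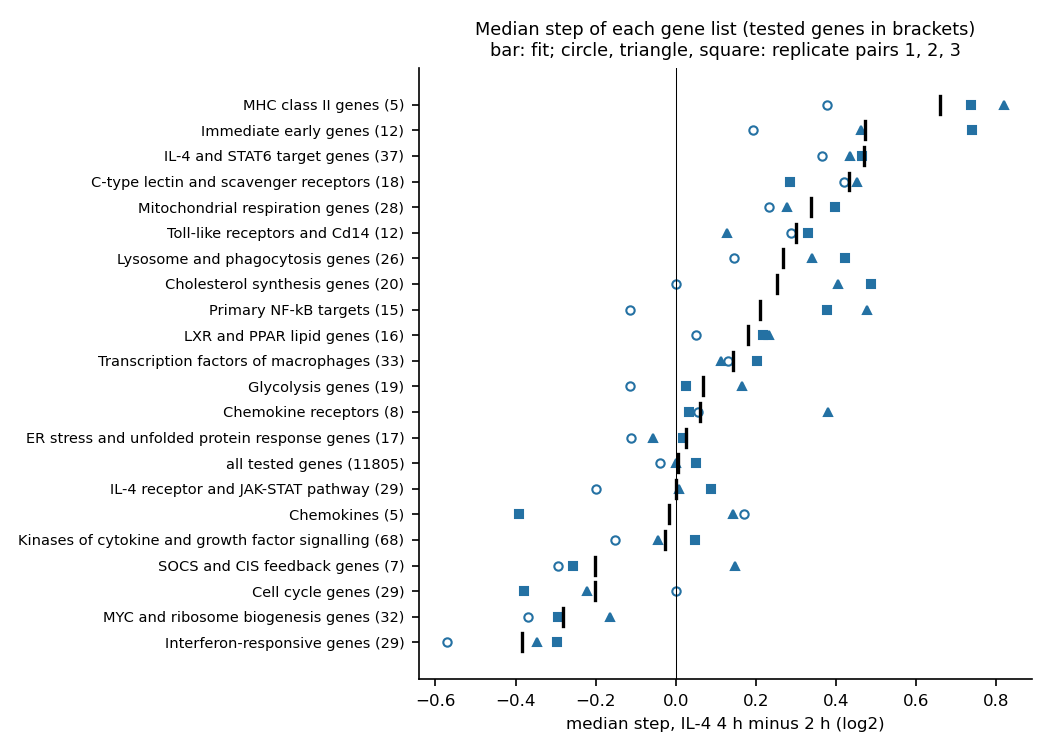
Median log2 step from 2 h to 4 h for each gene list, with the number of tested genes in brackets. Bars give the fitted median, and circles, triangles and squares the medians within replicate pairs 1, 2 and 3. Interferon-responsive genes lie lowest, at -0.38, and IL-4 and STAT6 targets at 0.47.

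Kinases of cytokine and growth factor signalling gave more falls than rises. Of 68 tested, 2 rose and 10 fell, or 2.94% and 14.7% against 3.04% and 3.90% of all genes, and with the block 11 rose and 17 fell, while the median step was -0.03 and changed sign when samples were scaled to equal totals. Tec, a cytoplasmic tyrosine kinase, went from 2273, 2453 and 2376 at 2 h to 1543, 1369 and 1515 at 4 h, a step of -0.68 ± 0.09 (limma adjusted p = 0.000393). Map3k8, which links Toll-like receptors to ERK, faded from 1148 ± 51.6 to 791 ± 30.7. Map3k5, a stress-activated kinase, was lowered by IL-4 and fell on from 397 ± 36.7 to 222 ± 7.21, and Pik3cg, the gamma catalytic subunit of PI3 kinase, from 383 ± 34.8 to 223 ± 22.9. Camk2d and the pseudokinase gene Trib1 fell from 2049 ± 204 to 1095 ± 248 and from 39.0 ± 3.46 to 15.3 ± 8.08. The falls of Fyn, Csk and Pik3cd and the rises of Matk and Sgk1 were each lost when any of at least 4 of the 6 samples was left out, among them replicate 3 of 2 h and replicate 2 of 4 h for all 5 genes, with limma adjusted p up to 0.183.

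Of 33 transcription factors of macrophages, 4 rose (12.1%, against 3.04% of all genes) and 5 fell (15.2%, against 3.90%), or 7 and 8 with the block. The RUNX family did not move together. Runx1 was at 5616, 5527 and 5823 in untreated cells, at 4039, 4009 and 3962 at 2 h and at 5942, 5253 and 6243 at 4 h, a step of 0.53 ± 0.07 (limma adjusted p = 0.000653) after which the 4 h samples overlapped the untreated ones. Runx2 fell from 695, 1033 and 1113 to 357, 426 and 477, a step of -1.15 ± 0.20 (limma adjusted p = 0.00304), and Runx3 from 46.3 ± 4.51 to 17.7 ± 4.51. The call of Runx3 ended when any of 5 of the 6 samples was left out, all but replicate 2 of 4 h, with limma adjusted p up to 0.0888. Rara, a retinoic acid receptor, fell as well, but its call ended without any sample but replicate 2 of 2 h, with limma adjusted p up to 0.103. Prdm1, the repressor BLIMP1, fell from 259 ± 37.6 to 170 ± 18.4.

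Genes whose lowering grew were long. Their median length was 117 kb, with quartiles of 46.6 and 221 kb, against 42.9 kb for lowered genes that held, 36.6 kb for lowered genes that faded, 56.1 kb for raised genes that faded, 46.4 kb for raised genes that grew and 24.8 kb for raised genes that held. Of 167 lowered genes over 200 kb, 40 fell further (24.0%), against 24 of 598 under 25 kb (4.01%), and among all tested genes of these lengths 12.3% and 1.55% fell. Rises were also more frequent among long genes, 7.36% against 2.16% of all tested genes, and of raised genes over 200 kb 14.8% rose and 17% fell. Long genes also had higher levels, with medians of 489 and 40.4 normalised read counts in these 2 bins of lowered genes. With the lowered genes split by level into low, middle and high, 13.3%, 11.7% and 19.1% of lowered genes over 100 kb fell further, against 3.55%, 4.38% and 6.41% of shorter ones. Arhgap24 (417 kb), Fat3 (592 kb), Slc8a1 (365 kb), Vav3 (345 kb) and Bank1 (273 kb) were all in the longest bin. These shares are a description of 1 set of genes and were not tested.

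**Figure D5:**
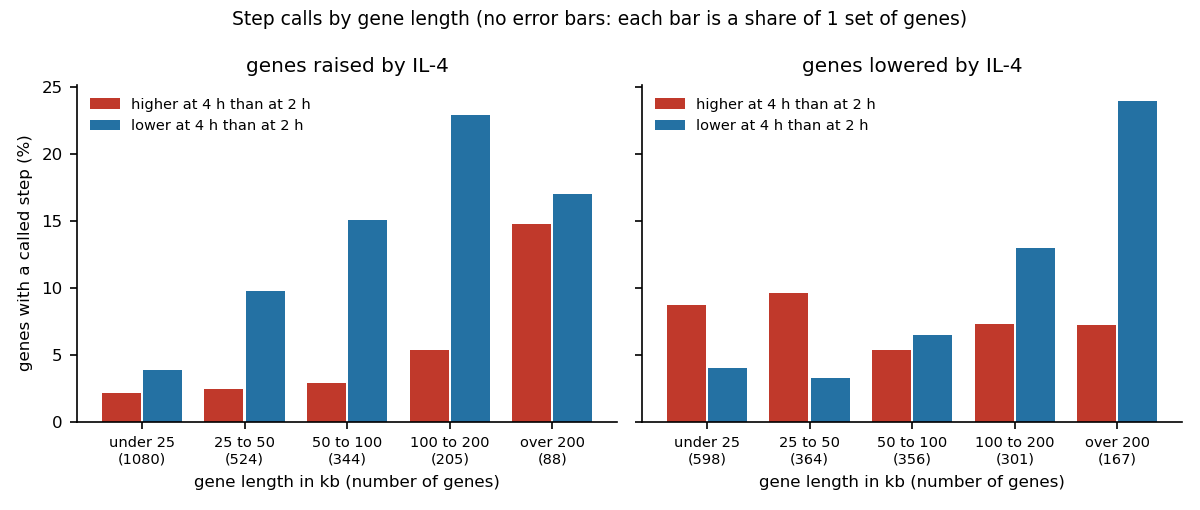
Share of genes with a called step, in percent, by gene length in kb, for genes raised (left) and lowered (right) by IL-4, with the number of genes in brackets. Red bars are genes higher at 4 h than at 2 h and blue bars genes lower at 4 h. Among lowered genes the blue bars go from 4.01% under 25 kb to 24.0% over 200 kb.

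The step after LPS served as a comparison. In a fit of all 27 samples the step differed between IL-4 and LPS in 1650 genes, more positive after IL-4 in 874 (7.40%) and more negative in 776 (6.57%). LPS itself gave 1796 rises and 1792 falls over this interval among the same genes (15.2% each). Cish, which held after IL-4, went from 296, 523 and 482 to 27, 19 and 22 after LPS, and its step was 4.38 ± 0.46 higher after IL-4 (limma adjusted p = 3.59e-07). Slc8a1, which fell on after IL-4, went from 1741, 1578 and 1727 to 4263, 3509 and 4161 after LPS, a difference of -2.70 ± 0.20 (limma adjusted p = 2.2e-09). For Scn3a and Cdk6 the difference between stimuli was -0.65 ± 0.58 and 0.10 ± 0.27 and was not called.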

How the data were processed

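The study's methods and the submitters' processing notes describe single-end nascent RNA-seq mapped to mm10 with TopHat2 2.1.1, removal of multi-mapping reads and blacklisted regions with bedtools 2.29.2, counting over RefSeq genes of GRCm38.p6 and scaling on invariant genes. DESeq2 and R 3.6.2 are also among the tools named by the authors. The deposited values are normalised read counts rounded to whole numbers by the authors, so they were handled as a score and not as raw counts, depth is unknown and no count model was run. Strand use in counting is not given in the sources used here.

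Genes with at least 10 in at least 3 of the 6 samples of IL-4 2 h and 4 h were kept. limma 3.58.1 in R 4.3.3 with a mean-variance trend was fitted on log2(value + 1) to 15 samples, and a fold on this scale understates the change of low genes. The step was 4 h minus 2 h, with Benjamini-Hochberg adjustment at 0.05 over 11805 genes. Gene lists were described, not tested. The comparison with LPS used all 27 samples.

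Same-numbered samples of 2 h and 4 h deviated together from their group means (r = 0.75, 0.60 and 0.51 over 6767 genes for replicates 1, 2 and 3). Between replicate 2 of 2 h and replicate 3 of 4 h r was 0.57. Between replicate 3 of 2 h and replicate 2 of 4 h it was 0.47. These values set replicate 1 apart but do not show that numbers 2 and 3 pair the samples. A replicate block was fitted beside the unblocked design. The fit was tried on simulated data with independent noise in every sample. The simulated replicates shared no deviations across times as the real ones did, so the trial cannot speak to that. Members, gene lists and tests were chosen with earlier results of these data known. Genes were named by size of step (10 rises and 10 falls, and 2 of each among other gene types), by the largest change in each class (4 each), from a fixed list of IL-4 genes, or as examples of their list. Naming by size of step required a called step, a mean of at least 50 at the higher time and no overlap between the samples of the 2 times. Some genes that met these rules are not reported here.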

Additional observations from a re-analysis of the deposited data

Results flagged for a closer look

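Of 103 named genes, 49 had a step from 2 h to 4 h that differed between IL-4 and LPS in the limma fit of all 27 samples, 26 more positive and 23 more negative after IL-4. Each value is the IL-4 step minus the LPS step on the log2 scale. The background is 7.40% and 6.57% of the 11805 tested genes, and many of these genes were named for their IL-4 step, so the count is not independent of it.

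Differences above 2 were found for Cish (4.38), Retnla (3.31), Ksr2 (2.91), Kcnd3 (2.86), Slc39a12 (2.52), Sgk1 (2.43), Hhip (2.25), Fads3 (2.23), Gm38585 (2.15), Klf2 (2.14), Fat3 (2.09) and Irs2 (2.09). Smaller positive differences were found for Zfyve28 (1.92), Il31ra (1.81), Hsf3 (1.69), Arhgap18 (1.67), Egr2 (1.65), Pparg (1.57), Tec (1.54), Vsig4 (1.41), Flt1 (1.29), Matk (1.21), Mrc1 (1.11), Map3k5 (0.83), Clec4d (0.82) and Runx1 (0.71). A positive value does not mean a rise after IL-4: Fat3, Mrc1, Map3k5 and Tec fell after IL-4 and fell by more after LPS.

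The most negative differences were those of Slc8a1 (-2.70), Hk3 (-2.00), Ifit2 (-1.90), Trib1 (-1.88), Inpp5d (-1.81), Klhl6 (-1.78), Tes (-1.74), Gm4876 (-1.69), Rasgrp1 (-1.60), Gm36442 (-1.58) and Gm41283 (-1.56). The others were Bank1 (-1.39), Pik3cg (-1.35), Camk2d (-1.35), Tcf7l2 (-1.23), Hs3st3b1 (-1.21), Arhgap24 (-1.16), Oasl2 (-1.04), Gbp7 (-0.89), Prdm1 (-0.76), Sinhcaf (-0.76), Pik3cd (-0.75) and Csk (-0.73). Rasgrp1 held after IL-4, and Klhl6 rose after IL-4 by less than after LPS.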

How the results depend on the processing

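With 3 samples a time, depth unknown and replicate 1 apart from the others, the counts of calls depended on the fit. No called step of a named gene changed sign, but which direction held more calls did: falls outnumbered rises in the reported fit, while rises outnumbered falls with equal totals (449 and 380) and with sample weights. Among lowered genes 138 grew and 140 faded, against 387 and 351 without replicate 1 and 99 and 80 without the filter, so neither outcome can be called the more frequent. The replicate block gave 886 rises and 1006 falls, 186 raised genes that grew and 414 that faded, and 339 lowered genes that grew and 368 that faded. It gave 124 rises and 547 falls among early raised genes, 450 and 164 among early lowered genes, and 2549 steps that differed from LPS. Early sets were chosen anew in each fit here. The block without replicate 1, added after seeing the data, gave 881 and 1007, 198 and 391, 405 and 366, 132 and 554, 483 and 182 (of 2923 early lowered genes), and 2905, in the same order. Sample weights gave 971 and 952, 198 and 414, 275 and 335, 107 and 522, 444 and 119, and 2921. With replicates 2 and 3 averaged, 15 genes rose and 36 fell, 1385 were raised (7 grew, 23 faded, 1009 held) and 1088 lowered (7 grew, 4 faded, 799 held), 1 rose and 23 fell of 976 early raised genes, 5 rose and 0 fell of 767 early lowered genes, and 578 differed from LPS. A fit of all 27 samples gave 170 rises and 260 falls, 37 raised genes that grew and 115 that faded, 82 lowered genes that grew and 61 that faded, 19 and 156 calls among early raised and 74 and 14 among early lowered genes. A fit of the 6 samples gave 222 and 279. A narrower limit for holding, 1.5-fold, left 1061 raised and 771 lowered genes. Without the filter, 80 lowered genes faded, 22 early raised genes rose, and 96 early lowered genes rose and 21 fell. Equal totals gave 2842 early lowered genes.

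Leaving out 1 sample or 1 replicate number at a time gave 9 to 834 rises and 24 to 967 falls, 1244 to 2385 raised genes (4 to 181 grew, 15 to 380 faded, 870 to 1708 held), 950 to 2520 lowered genes (5 to 387 grew, 2 to 351 faded, 685 to 1638 held), 873 to 2073 early raised genes (0 to 119 rose, 17 to 540 fell), 644 to 2885 early lowered genes (3 to 454 rose, 0 to 161 fell) and 499 to 2812 steps that differed from LPS. Of 85 named genes with a called step, 51 kept the call without any 1 of the 6 samples, 8 without replicate 2, 12 without replicate 3 and 85 with the block.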

Other observations

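On chromosome 2, Slc39a12, whose rise between 2 h and 4 h was the largest of the named genes, lies on the same strand between 2 genes that IL-4 raised earlier. It starts 56.4 kb past the end of Mrc1, which faded from 12320 ± 1265 (SD) normalised read counts to 7659 ± 544 while Slc39a12 went from 13.3 ± 5.51 to 181 ± 83.7. Cacnb2, the next protein-coding gene of those examined, went from 604 ± 19.1 to 882 ± 50.8. The neighbourhood was looked at after the values were seen.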
